A study of Mus musculus with 20 samples.

Results

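The genes described here are the proteasome genes of mouse liver, taken as every protein-coding gene whose symbol begins with Psm, a letter from a to g and a number, and which had at least 10 strand-matched reads in at least 5 of the 20 mice. Of 50 protein-coding genes with such a symbol, 48 met this limit, against 12107 protein-coding genes in all that met it and 55573 gene IDs in the data. The other two, Psmb11 and Psme2b, had no read in any mouse. By role the 48 are 15 genes of the constitutive 20S core (8 of the alpha ring, 4 structural and 3 catalytic beta subunits), 17 of the 19S cap (6 ATPases and 11 other subunits), 5 of the immunoproteasome, 7 assembly chaperones, 3 further activators or inhibitors, and Psmc3ip, which shares the symbol but acts in meiotic recombination and is no proteasome subunit.

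Liver RNA of 20 male mice was sequenced after rRNA depletion, with 5 mice in each of 4 groups. Titan mice (line DU6), selected for high body mass over 45 years, were compared with unselected control mice (FZTDU) at 11 weeks (called young here) and at 19–21 weeks of age (called older), all on standard breeding feed without restriction. Each line is a single non-inbred line, so selection, drift and genetic background cannot be told apart in any comparison of the lines. The libraries held 6794935 to 23295028 reads on genes, and in 5 libraries (2 of older Titan mice and 1 in each of the other groups) over 30% of mapped reads fell outside genes. The hepatocyte genes Alb, Ttr, Apoa1, Apob, Hnf4a and Tat together took 80130 to 119700 CPM in every mouse, where CPM is the count of a gene scaled to a common library total. Of these 6, Apoa1 was called lower in Titan mice at 11 weeks, by a log2 fold change of -0.54 ± 0.14 (standard error, edgeR adjusted p = 0.012), and none was called at 19–21 weeks (lowest adjusted p = 0.333).

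The proteasome is the protease of the cytosol and nucleus that degrades proteins marked with ubiquitin. Its 20S core is a barrel whose alpha rings gate the entrance and whose beta rings carry the catalytic sites, and its 19S cap binds ubiquitin chains, removes them and unfolds the substrate with a ring of ATPases. Under interferon the catalytic subunits Psmb5, Psmb6 and Psmb7 are replaced by Psmb8, Psmb9 and Psmb10, which alters the peptides offered to T cells, and the activator subunits Psme1 and Psme2 rise as well. In liver, as in other tissues, the transcription factor Nfe2l1 raises the proteasome genes together when proteasome activity falls.

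Promoters are shown for the called proteasome genes that the RefSeq promoter table holds (Psmf1, Psmb3 and Psmd9, whose values follow; Psmc3ip, no subunit, is in the table and not shown) and for Psmb6, which passed no threshold and holds the letters of the antioxidant response element next to its start. The sequences are from RefSeq GRCm38.p6, 5′ to 3′ on the strand of the gene, and end at the base before the RefSeq start or, for Psmb3, before the first annotated exon. Capitals mark the letters TGACNNNGC (antioxidant response element core), CCAAT, GAAA, any 2 bases, GAAA (interferon response) and TTCNNNGAA (gamma-interferon activation site) on either strand, none of which overlap here. They are Psmf1 at chr2:151741311-151741560 on the minus strand, Psmb3 at chr11:97703184-97703398, Psmd9 at chr5:123227940-123228189 and Psmb6 at chr11:70525107-70525356, the remaining ones on the plus strand, and no annotated exon of the gene itself overlaps them. The windows of Psmf1 and Psmd9 are intronic in the annotation, which begins both genes farther upstream.
Psmf1: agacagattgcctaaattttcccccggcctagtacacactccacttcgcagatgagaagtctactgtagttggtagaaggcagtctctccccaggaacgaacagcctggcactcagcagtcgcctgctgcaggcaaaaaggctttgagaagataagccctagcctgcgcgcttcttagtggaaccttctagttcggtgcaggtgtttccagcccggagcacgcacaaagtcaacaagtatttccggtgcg
Psmb3: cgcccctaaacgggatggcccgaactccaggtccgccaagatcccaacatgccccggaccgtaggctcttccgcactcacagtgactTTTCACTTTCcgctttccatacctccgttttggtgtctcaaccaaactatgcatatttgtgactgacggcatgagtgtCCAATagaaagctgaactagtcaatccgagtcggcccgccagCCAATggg
Psmd9: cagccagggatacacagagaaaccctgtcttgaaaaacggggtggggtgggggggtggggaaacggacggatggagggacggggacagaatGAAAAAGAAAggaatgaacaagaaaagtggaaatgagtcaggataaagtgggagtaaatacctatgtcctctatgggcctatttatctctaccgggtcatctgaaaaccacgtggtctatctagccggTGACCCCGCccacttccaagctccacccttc
Psmb6: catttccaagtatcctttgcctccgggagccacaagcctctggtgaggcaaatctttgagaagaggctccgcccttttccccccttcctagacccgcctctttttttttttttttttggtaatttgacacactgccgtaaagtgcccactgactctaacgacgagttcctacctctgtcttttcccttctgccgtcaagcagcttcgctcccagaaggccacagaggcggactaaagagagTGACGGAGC

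Of the 48 members, 40 had an entry in this table. In the 250 bases before the start, TGACNNNGC was present in 5 of the 40 (Psmb5, Psmb6, Psmc6, Psmd12 and Psmd9), or 12.5%, against 11.5% of the 27025 genes in the table. CCAAT was present in 14 of 40 (35.0%, against 37.5% of all genes), the interferon letters in 3 of 40 (7.5%, against 3.46%) and TTCNNNGAA in 2 of 40 (5.0%, against 8.13%). These are matches of letters only.

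The levels of the subunits were compared per length, as CPM per kilobase of merged exons. Over the core and cap genes the median was 23.1 CPM per kb. In the alpha ring the highest level was that of Psma6 (54.0 CPM per kb on average over the 20 mice, range 42.7 to 64.2) and the lowest that of Psma8 (0.521, range 0.0681 to 1.22), the alternative alpha subunit of the testis. Among structural beta subunits Psmb4 was highest (48.7) and Psmb3 lowest (7.42). Of the catalytic subunits Psmb6 (41.7) was above Psmb7 (27.3), and both were above Psmb5 (8.23), in every mouse. Psmb3 has 7 pseudogene copies at up to 97.1% identity and Psmb5 has 2, one at 98.9%, and since reads that map to several places are in no count, reads lost from them this way were not measured. The cap ranged from 37.4 CPM per kb for Psmd2, the scaffold of the base, to 14.0 for Psmd3, a subunit of the lid, with the ATPases between 36.1 (Psmc1) and 16.5 (Psmc2). Assembly chaperones were lower, from 11.0 (Psmg1) to 1.42 (Psmd10, gankyrin). Among the remaining regulators Psme4, the nuclear activator PA200, stood at 28.2 and Psmf1, the inhibitor PI31, at 4.68. With the length of the principal transcript the highest or lowest gene changed in the alpha ring and the cap. Psma7 (83.1) then stood above Psma6 (63.96), Psmd8 (63.6) was highest and Psmd13 (24.99) lowest of the other cap subunits, and the ATPases ran from 57.4 (Psmc3) to 35.3 (Psmc5).

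**Figure D1:**
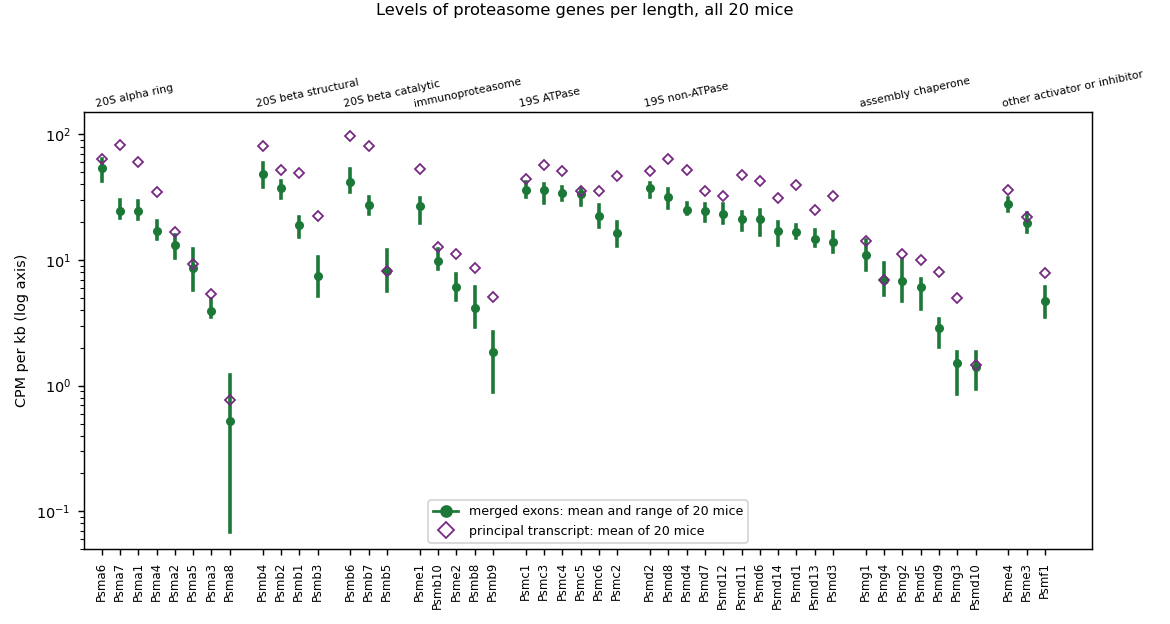
Levels of 47 proteasome genes in CPM per kb on a log axis, grouped by role and ordered by level. Circles and bars give the mean and range of the 20 mice with the length of merged exons, and open diamonds the mean with the length of the principal transcript. With merged exons the cap genes lie between 14.0 and 37.4 CPM per kb, the core genes spread more widely, and Psma8 lies lowest. Reads lost to near-identical pseudogene copies were not measured. Psmc3ip is not drawn.

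The immunoproteasome genes had reads in every mouse, and 4 of the 5 lay below the median of core and cap. Psme1, an activator subunit made outside immune cells too, stood at 26.9 CPM per kb (range 19.7 to 31.1), Psmb10 at 9.81, Psme2 at 6.07, Psmb8 at 4.16 and Psmb9 at 1.87 (range 0.899 to 2.70). The distance of each from its constitutive counterpart depends on the length used. With the principal transcript, Psmb8 (8.63) and Psmb5 (8.23) lay close to each other, while Psmb9 (5.06) stayed far below Psmb6 (97.9) and Psmb10 (12.8) below Psmb7 (80.5). Psmb5 has a pseudogene copy at 98.9% identity over 796 bases, and reads lost to it were not measured. The level of Psmb8 beside Psmb5 is therefore uncertain. The differences between groups do not depend on length.

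In edgeR's quasi-likelihood test over 13784 genes, with Benjamini–Hochberg adjustment and a threshold of 0.05, Titan mice differed from controls at 11 weeks in 5 of the 48 members (10.4%), 1 higher and 4 lower, while 14.9% of all tested genes were called (7.23% higher and 7.7% lower). At 19–21 weeks 5 members (10.4%) were called, 2 higher and 3 lower, against 9.12% of all genes (4.24% higher and 4.88% lower). All 48 passed the filter on low counts. Psmc3ip, however, met the read limit in 5 mice only, all of them controls, and Psma8 met it in all 10 control mice and 2 Titan mice, so both were taken in through the group in which they are high. Of the 46 genes with at least 10 reads in every mouse, 3 (6.52%) were called at 11 weeks and 4 (8.7%) at 19–21 weeks. Beside these stand 14.9% and 9.12% of all tested genes, a share not taken over genes with the same limit. CPM values of the lines did not overlap for 4 of 48 members at each age (8.33%), against 11.9% of all genes at 11 weeks and 7.62% at 19–21 weeks. At an unadjusted p under 0.05 there were 10 of 48 at 11 weeks, where 27.5% of all genes were, and 7 of 48 at 19–21 weeks, where 24.1% of all genes were. The nearest to the threshold without passing it at 11 weeks was Psmd5, a chaperone of the cap base, with a log2 fold change of 0.28 ± 0.10 (standard error, edgeR adjusted p = 0.071), and DESeq2 called it (0.29, adjusted p = 0.0435).

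None of the 17 cap genes was called at either age, against 14.9% of all tested genes at 11 weeks and 9.12% at 19–21 weeks. Their log2 fold changes in Titan against control ran from -0.15 (Psmc2) to 0.16 (Psmd1) at 11 weeks and from -0.16 (Psmc4) to 0.08 (Psmd3) at 19–21 weeks, with 95% intervals that reached from -0.31 to 0.32 at their outermost. At an unadjusted p under 0.05 there was 1 of 17 at each age, Psmd1 and Psmc4, against 27.5% and 24.1% of all genes. With DESeq2 Psmd1 was called at 11 weeks (0.17, adjusted p = 0.0411). The median over the cap was -0.02 at 11 weeks and -0.05 at 19–21 weeks, beside medians of -0.02 and 0.01 over all tested genes. The median size of the change was 0.07 at each age, against 0.18 over all genes. The summed level of the cap was 1390 ± 60.3 CPM (SD, n = 5) in young controls and 1408 ± 45.5 in young Titan mice, and 1348 ± 50.3 and 1312 ± 60.7 in older controls and Titan mice.

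The 15 constitutive core genes summed to 780.7 ± 38.2 CPM (SD, n = 5) in young controls and 755.7 ± 40.8 in Titan mice of that age, and to 760.7 ± 57.4 and 722 ± 67.8 at 19–21 weeks. These groups overlap at both ages. One gene (Psma8) was called at 11 weeks (6.67%, against 14.9% of all tested genes). At 19–21 weeks 3 were called (Psma8, Psmb1 and Psmb3, 20%, against 9.12%). Psma8 was taken in through the control mice, in which it is high. Without it, 0 of the 31 core and cap genes were called at 11 weeks and 2 (6.45%) at 19–21 weeks. Between mice of the same group the median SD of log2 CPM was 0.16 for the core, 0.12 for the cap and 0.21 for the immunoproteasome. It was 0.22 over all tested genes and 0.17 over the 7570 tested genes in the same range of mean CPM as core and cap. The core thus lay near this last value and the cap below it. That range, set without Psma8, reaches down to Psmb5, below every cap gene. The cap was therefore not compared with genes of its own level.

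**Figure D2:**
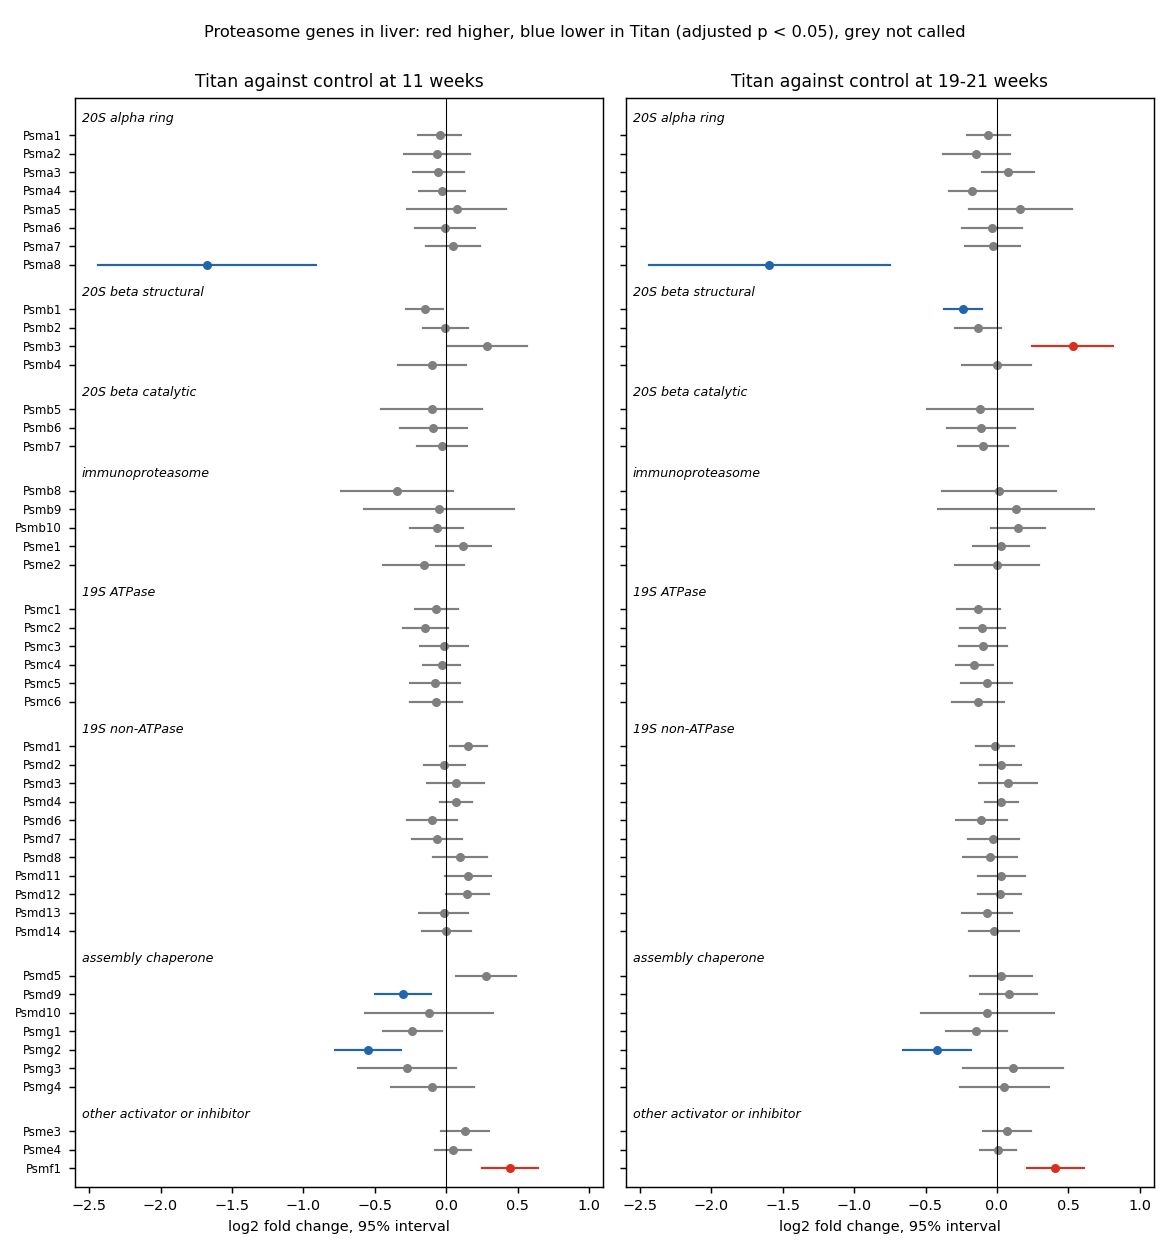
Log2 fold change of Titan against control with its 95% interval for 47 proteasome genes, by role, at 11 weeks (left) and 19–21 weeks (right). Red and blue mark genes higher and lower at an adjusted p under 0.05, and the 17 cap genes all lie within 0.16 of 0. Psmc3ip is not drawn.

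Psmf1 (GRCm38 chromosome 2, 151715812 to 151744186, minus strand) was higher in Titan mice at both ages. Its product, PI31, was found as an inhibitor of the 20S core and also carries proteasomes in neurons. At 11 weeks the 5 controls had 27.9, 23.6, 25.7, 27.6 and 24.5 CPM and the 5 Titan mice 37.6, 36.8, 30.6, 35.3 and 35.8 CPM. Every Titan mouse was above every control. The log2 fold change was 0.45 ± 0.09 (standard error, edgeR adjusted p = 0.00245). At 19–21 weeks the controls had 24.4, 31.6, 22.8, 25.96 and 23.3 CPM and the Titan mice 29.4, 33.2, 39.4, 36.1 and 31.8 CPM. Here 1 control lay above 1 Titan mouse, and the log2 fold change was 0.41 ± 0.10 (edgeR adjusted p = 0.0096). Without the 5 libraries with over 30% of mapped reads outside genes, the 19–21-week difference was 0.31 (adjusted p = 0.175).

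Psmg2 was lower in Titan mice at both ages. It forms, with Psmg1, the PAC1–PAC2 chaperone on which the alpha ring is built. Controls of 11 weeks had 13.2, 14.2, 17.8, 15.0 and 12.3 CPM and Titan mice 9.85, 9.69, 9.56, 9.83 and 10.7 CPM, with no overlap. On the log2 scale the difference was -0.55 ± 0.11 (edgeR adjusted p = 0.00173). At 19–21 weeks controls had 12.3, 14.6, 11.5, 13.6 and 13.6 CPM and Titan mice 12.4, 8.99, 8.14, 10.04 and 9.52 CPM. One Titan mouse fell among the controls, and the log2 fold change was -0.42 ± 0.11 (edgeR adjusted p = 0.0249). With any of 5 single mice left out (control replicates 2 and 5, Titan replicates 2, 3 and 5) this adjusted p rose to between 0.0503 and 0.0655. It was 0.0667 with only the groups compared, 0.0531 with the replicate block and 0.24 without the 5 libraries named above. Its partner Psmg1 had -0.24 ± 0.10 at 11 weeks (adjusted p = 0.122), with no overlap of the lines in CPM, and -0.15 ± 0.10 at 19–21 weeks (adjusted p = 0.407).

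Psma8 was lower in Titan mice at both ages, from few reads. Controls of 11 weeks had 1.18, 2.17, 2.97, 1.098 and 3.04 CPM (14 to 60 reads) and Titan mice 0.76, 0.55, 0.58, 0.30 and 0.92 CPM (3 to 22 reads). At 19–21 weeks controls had 1.115, 2.26, 2.59, 1.98 and 1.34 CPM and Titan mice 0.54, 0.68, 0.97, 0.76 and 0.17 CPM. The lines did not overlap at either age. Titan against control gave a log2 fold change of -1.68 ± 0.37 at 11 weeks and -1.59 ± 0.40 at 19–21 weeks (edgeR adjusted p = 0.00325 and 0.0162). Its constitutive relative in the ring, Psma7, had a level of 24.7 CPM per kb of merged exons.

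The structural beta subunits Psmb3 (chromosome 11, 97703399 to 97713500) and Psmb1 (chromosome 17, 15475021 to 15499751) passed the threshold at 19–21 weeks alone, in opposite directions. For Psmb3 the older controls had 15.3, 14.3, 14.7, 15.4 and 13.2 CPM and the Titan mice 21.5, 19.0, 18.6, 23.7 and 22.3 CPM, with every Titan mouse above every control. Psmb3 differed by 0.53 ± 0.14 on the log2 scale (edgeR adjusted p = 0.0168), and 0.29 ± 0.13 at 11 weeks (adjusted p = 0.161), when Titan mice spread from 13.6 to 24.4 CPM. The call was lost without Titan replicate 4 of 19–21 weeks, at an adjusted p of 0.0503, and without the 5 libraries with many reads outside genes (0.54, adjusted p = 0.111). Psmb3 has 7 pseudogene copies at up to 97.1% identity. Whether the reads lost to these copies differ between the lines was not tested, so the size of its line difference is uncertain. For Psmb1 the older controls had 83.4, 93.2, 93.9, 90.8 and 95.1 CPM and the Titan mice 78.6, 82.1, 69.8, 75.4 and 80.98 CPM. The lowest control lay above the highest Titan mouse. Psmb1 differed by -0.24 ± 0.06 on the log2 scale (edgeR adjusted p = 0.0228), and -0.15 ± 0.06 at 11 weeks (adjusted p = 0.121). Without control replicate 5, Titan replicate 3 or Titan replicate 4 of 19–21 weeks the adjusted p was 0.0533, 0.0701 and 0.053. It was 0.0927 with no filter on low counts and 0.071 with only the groups compared, and without the 5 libraries the difference was -0.18 (adjusted p = 0.245). The test of a different line effect at the 2 ages gave 0.24 ± 0.19 for Psmb3 and -0.09 ± 0.09 for Psmb1 (adjusted p = 0.768 and 0.846), so that passing at one age is not shown to be a difference between the ages.

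Psmd9 (chromosome 5, 123169413 to 123250131), the chaperone p27 of the cap base, was the only member called between the ages. In young Titan mice it had 18.1, 16.6, 19.5, 14.7 and 17.3 CPM, and in older Titan mice 24.1, 22.2, 23.5, 24.3 and 20.8 CPM, with no overlap. The log2 fold change with age was 0.41 ± 0.09 in Titan mice (edgeR adjusted p = 0.0377) and 0.03 ± 0.09 in controls (adjusted p = 1), and the difference of these age effects was 0.38 ± 0.13 (unadjusted p = 0.00911, adjusted p = 0.366). Controls had 18.2, 22.6, 24.7, 20.2 and 20.8 CPM at 11 weeks and 20.2, 23.3, 18.9, 24.4 and 22.1 CPM at 19–21 weeks. Titan against control gave -0.30 ± 0.09 on the log2 scale at 11 weeks (edgeR adjusted p = 0.0326), with overlap, and 0.08 ± 0.09 at 19–21 weeks (adjusted p = 0.644). Leaving out any 1 of Titan replicates 1, 2 and 5 of 11 weeks or 1 to 4 of 19–21 weeks raised the adjusted p of the age effect to between 0.0529 and 0.141. Leaving out control replicate 2 or 3 or Titan replicate 2, 4 or 5 of 11 weeks raised that of the line effect to between 0.0625 and 0.102. With no filter on low counts, only the groups compared, the replicate block or the 5 libraries left out, the age effect had an adjusted p of 0.104, 0.0695, 0.0756 and 0.24 and the line effect one of 0.101, 0.0746, 0.0612 and 0.0778. The age effect also lost its call with counts over both strands (0.055) and with the share of reads outside genes as covariate (0.0793), and the line effect with at least 10 counts in every mouse (0.0502).

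Psmc3ip, the cofactor of meiotic recombinases, was called lower in Titan mice at 11 weeks, with values that fell apart within the control groups. In all, 4 of 5 controls of 11 weeks (2.42, 2.97, 2.44 and 2.345 CPM) and 1 of 5 controls of 19–21 weeks (2.64 CPM) had 20 to 60 reads. The remaining control of 11 weeks had 0 reads. The 15 other mice, that control included, had 0 to 6 reads and at most 0.40 CPM. The fitted log2 fold change at 11 weeks was -3.99 ± 0.88 (edgeR adjusted p = 0.0034), with overlap of the groups through that control, and -1.48 ± 1.04 at 19–21 weeks (adjusted p = 0.408). Mlx, which overlaps it on the opposite strand, had 23.99 to 38.4 CPM in young controls and 26.7 to 29.0 CPM in young Titan mice.

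**Figure D3:**
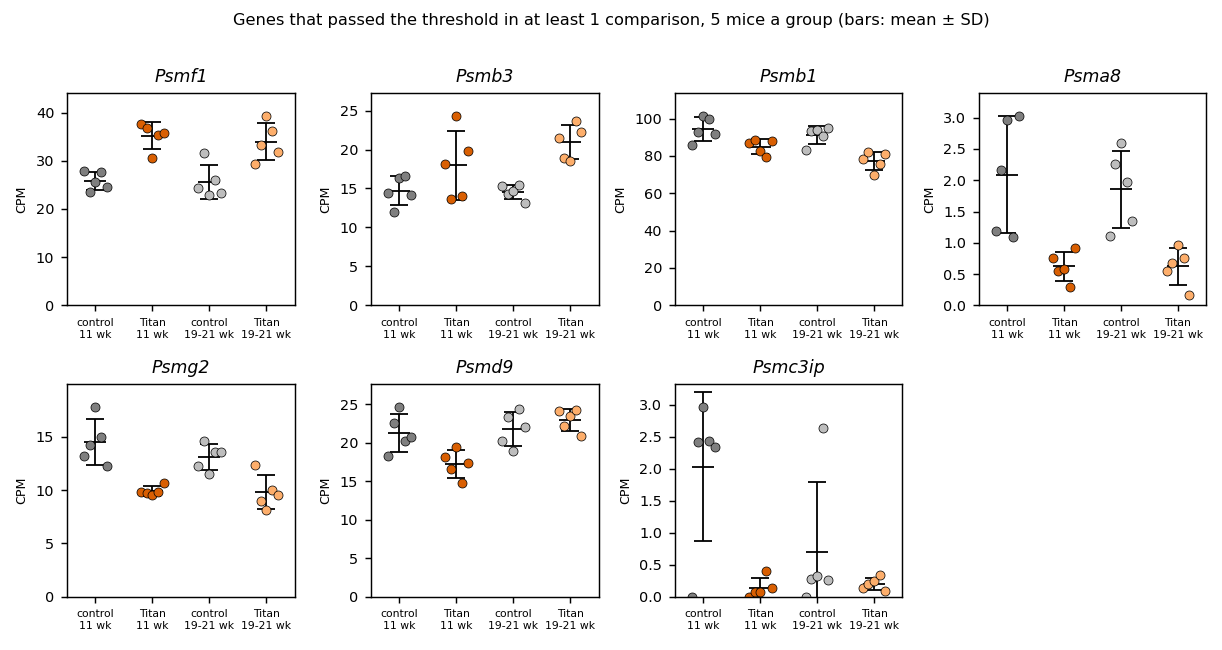
CPM in each mouse of the 7 genes that passed the threshold in at least 1 comparison, 5 mice in each of 4 groups, with mean and SD as bars. Psmf1 lies higher and Psmg2 and Psma8 lower in Titan mice at both ages, and the Psmc3ip values fall into 5 control mice above 2 CPM and 15 mice at or below 0.40 CPM.

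Of the immunoproteasome genes 0 of 5 were called between the lines at either age, between the ages in either line, or for the difference of these effects, by edgeR or by DESeq2. Of all tested genes edgeR called 14.9% and 9.12% between the lines at 11 and 19–21 weeks. With age it called 1.25% in Titan mice and 0.0871% in controls, and for the difference of these effects 0.00725%. None of the 5 had an unadjusted p under 0.05 in any of these edgeR comparisons, against 6.16% to 27.5% of all tested genes. A count of 0 in 5 genes does not set them apart from these shares. Psmb8, which replaces Psmb5, had 11.6, 15.0, 12.2, 20.6 and 19.6 CPM in young controls and 13.4, 12.0, 10.4, 12.8 and 13.6 CPM in Titan mice. The groups overlap, since 2 controls reached about 20 CPM and no Titan mouse of this age passed 13.6. The log2 fold change was -0.35, with a 95% interval from -0.74 to 0.04 (edgeR adjusted p = 0.246). At 19–21 weeks controls had 12.9, 14.0, 10.8, 13.8 and 18.04 CPM and Titan mice 18.8, 17.1, 9.97, 9.95 and 14.5 CPM, a log2 fold change of 0.02 with an interval from -0.39 to 0.42.

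Psmb9, which replaces Psmb6 and lies beside Psmb8 in the major histocompatibility complex on chromosome 17 (34181987 to 34187764, minus strand), also overlapped between the groups. It had 5.23, 6.58, 4.06, 9.57 and 9.86 CPM in young controls, 8.54, 5.55, 6.13, 6.26 and 7.52 CPM in young Titan mice, 4.37, 6.86, 6.31, 7.64 and 6.88 CPM in older controls and 9.11, 9.28, 6.68, 3.29 and 6.97 CPM in older Titan mice. The line effect was -0.05 (interval -0.57 to 0.48, edgeR adjusted p = 0.935) at 11 weeks and 0.13 (interval -0.41 to 0.68, adjusted p = 0.797) at 19–21 weeks. A difference within these intervals was not detectable with 5 mice a group.

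Psmb10, which replaces Psmb7, had narrower intervals. Its CPM was 17.2 ± 1.21 (SD, n = 5) in young controls and 16.4 ± 0.825 in Titan mice, and 15.8 ± 1.53 and 17.6 ± 2.21 at 19–21 weeks. The line effects were -0.07 (interval -0.25 to 0.12) and 0.15 (interval -0.04 to 0.34), with edgeR adjusted p of 0.687 and 0.335. The activator subunits Psme1 and Psme2 had line effects of 0.12 and -0.16 at 11 weeks and of 0.03 and 0.002 at 19–21 weeks, at adjusted p from 0.432 to 0.995. Age effects in the 5 genes ran from -0.02 to 0.17 in Titan mice and from -0.19 to 0.07 in controls.

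None of the constitutive counterparts was called either, with no unadjusted p under 0.05 and none called by DESeq2. The shares of all tested genes are those given above for the immunoproteasome genes. Psmb5 had 8.04 ± 1.52 CPM (SD, n = 5) in young controls and 7.49 ± 2.01 in Titan mice, Psmb6 80.4 ± 8.28 and 75.5 ± 7.81, and Psmb7 95.6 ± 7.91 and 93.6 ± 8.33. In the older mice Psmb5 had 7.30 ± 0.509 and 6.75 ± 1.48, Psmb6 81.3 ± 13.5 and 75.4 ± 10.1, and Psmb7 95.4 ± 7.02 and 89.1 ± 9.603. The log2 fold changes of the 3 genes ran from -0.12 to -0.03 over both ages, with 95% intervals between -0.49 and 0.25.

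**Figure D4:**
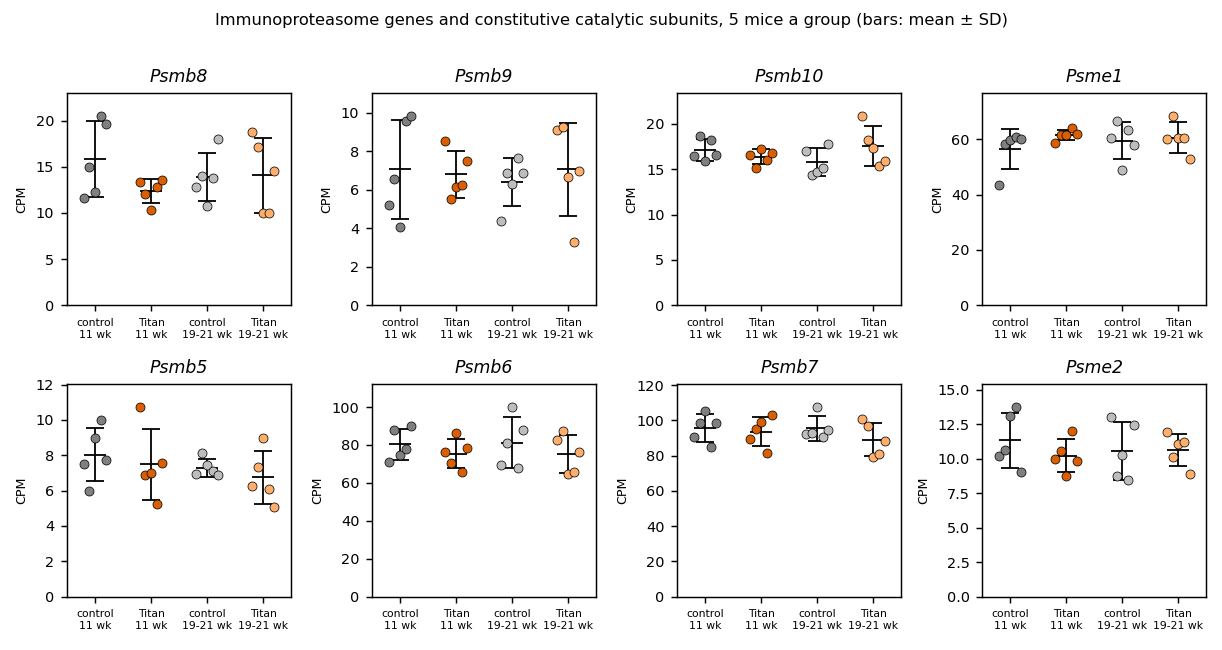
CPM in each mouse of the 5 immunoproteasome genes and of Psmb5, Psmb6 and Psmb7, 5 mice in each of 4 groups, with mean and SD as bars and axes from 0. The 4 groups overlap for each gene.

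The ratio of each immunoproteasome subunit to its constitutive counterpart, as log2 of the levels per kb in each mouse, overlapped between the lines for all 3 pairs at both ages. For Psmb8 to Psmb5 it was -0.95 ± 0.40 (SD, n = 5) in young controls, -1.15 ± 0.36 in young Titan mice, -0.999 ± 0.31 in older controls and -0.88 ± 0.60 in older Titan mice. For Psmb9 to Psmb6 the means of these groups were -4.55, -4.45, -4.64 and -4.46, with SDs of 0.26 to 0.48. For Psmb10 to Psmb7 they were -1.47, -1.51, -1.59 and -1.34, and at 19–21 weeks 1 of the 5 Titan mice and 2 of the 5 controls lay in the shared range from -1.47 to -1.40. With the principal transcript length the mean over all mice moved to 0.06 for the first pair, -4.32 for the second and -2.66 for the third. The first pair is also subject to the unmeasured loss of Psmb5 reads to its copies.

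**Figure D5:**
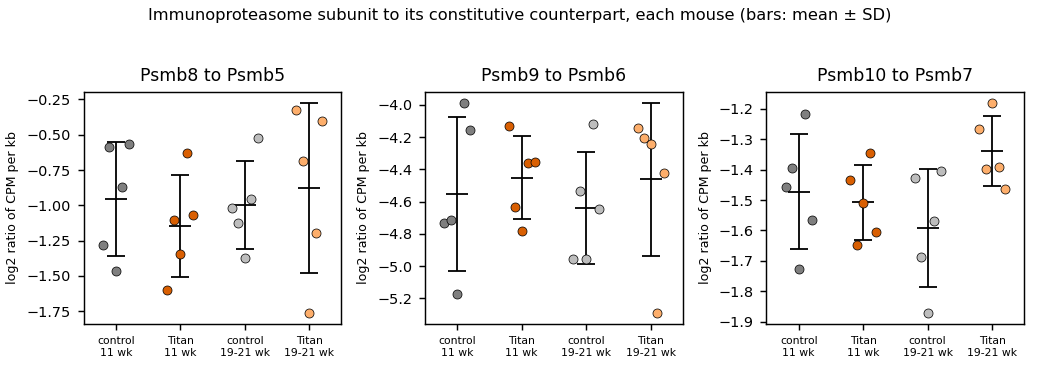
Log2 ratio of CPM per kb of each immunoproteasome subunit to the subunit it replaces, in each mouse, with mean and SD as bars. Lines and ages overlap in every panel, and the Psmb9 to Psmb6 ratio lies near -4.5 in all groups.

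In whole liver, fewer immune cells and less RNA per cell cannot be told apart. The 13 leukocyte markers (Ptprc, Cd3e, Cd3g, Cd8a, Cd4, Cd79a, Ms4a1, Nkg7, Gzmb, Itgam, Itgax, Lyz2 and Cd74) summed to 50.4 to 73.1 CPM in young controls, 56.4 to 86.5 in Titan mice of that age, 42.5 to 104.6 in older controls and 54.7 to 134.3 in older Titan mice, with no marker at 0 in all mice. Of the 5 with enough reads for the test, 40% were called at 11 weeks and 20% at 19–21 weeks, against 14.9% and 9.12% of all tested genes. Cd3e was higher in Titan mice at both ages (log2 fold change 3.94 and 2.02, from at most 58 reads) and Cd4 lower at 11 weeks (-1.71). At 19–21 weeks Cd3e overlapped between the lines, with 2.24 CPM in control replicate 4 and 1.60 to 2.64 CPM in Titan mice. Cd3g and Cd8a had at most 0.51 and 0.25 CPM in any mouse. The 6 Kupffer cell markers (Adgre1, Clec4f, Vsig4, Cd5l, Csf1r and Marco) summed to 96.1 to 279.9 CPM over all mice and none was called at either age, by edgeR or DESeq2 or at an unadjusted p under 0.05. The endothelial, stellate and cholangiocyte markers summed to 138 to 194 CPM, 100.1 to 198.5 CPM and 5.94 to 26.9 CPM over all mice, and of these Pecam1 (-0.28) and Des (1.23) were called at 11 weeks and Lyve1 (-2.18) at 19–21 weeks. Their part in the immunoproteasome values was not tested.

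With age, 1 of 48 members was called in Titan mice, higher (2.08%, against 1.25% of all tested genes, 0.486% higher and 0.762% lower). It was also the only one without overlap of the ages, against 2.97% of all genes, and 5 of 48 had an unadjusted p under 0.05, against 15.6%. In controls 0 of 48 were called, against 0.0871% of all genes (0.0435% higher and 0.0435% lower), and none by DESeq2. There 0 of 48 were without overlap, against 1.02%, and 2 of 48 had an unadjusted p under 0.05, against 6.16%. All 17 cap genes had a negative log2 fold change with age in Titan mice, from -0.18 (Psmd1) to -0.03 (Psmd3), and 15 of 17 in controls. None was called by edgeR or DESeq2, with an unadjusted p under 0.05 in 3 of 17 and 1 of 17, and the median was -0.10 in Titan mice and -0.04 in controls, beside 0.02 and 0.00 over all genes. The difference of the age effects passed for none of the 48 (0.00725% of all genes), and 1 of 48, Psmd9, had an unadjusted p under 0.05, against 8.93% of all genes, with none passing by DESeq2.

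The other genes of the pathway were counted in the same fit. None of the 7 tested subunits and receptors without a Psm symbol (such as the ubiquitin receptor Adrm1, the deubiquitinases Usp14 and Uchl5 and the assembly factor Pomp) was called at either age, by edgeR or DESeq2. By edgeR 14.9% and 9.12% of all tested genes were called at 11 and 19–21 weeks. An unadjusted p under 0.05 was found in 1 and 0 of 7 at these ages, against 27.5% and 24.1% of all genes. Among 8 genes of the transcription factors of proteasome genes and their processing, 3 (37.5%) were called at 11 weeks, against 14.9% of all tested genes. None was called at 19–21 weeks, against 9.12% of all tested genes. At that age 1 of 8 had an unadjusted p under 0.05 and DESeq2 called none. Nfe2l1, whose product drives proteasome genes, was higher in Titan mice of 11 weeks by 0.31 ± 0.09 on the log2 scale (edgeR adjusted p = 0.0272). This call was lost without any 1 of control replicates 1, 3 and 4 or Titan replicates 1, 2 and 3 (adjusted p 0.054 to 0.0838). It was also lost without the 5 libraries (0.136). Nfe2l1 had 127.5 ± 12.35 CPM (SD, n = 5) in young controls and 158.2 ± 19.7 in young Titan mice. At 19–21 weeks it had 120.2 ± 12.2 and 144.1 ± 11.1 CPM, in the same direction. Neither edgeR nor DESeq2 called a different line effect at the 2 ages for Nfe2l1. Nfe2l2, which drives antioxidant genes and also proteasome genes under oxidative stress, was higher by 0.82 ± 0.16 (adjusted p = 0.00125). Nfe2l2 had 57.0 to 72.1 CPM in young controls and 84.3 to 127.3 CPM in Titan mice, with no overlap, and 54.2 to 102.8 and 58.6 to 85.9 CPM at 19–21 weeks. Ddi2, the protease that cuts the Nfe2l1 protein into its active form, had a log2 fold change of -0.55 ± 0.10 at 11 weeks (edgeR adjusted p = 0.000521), with 249 to 315 CPM in controls and 174 to 214 CPM in Titan mice. The test of a different line effect at the 2 ages gave an edgeR adjusted p of 0.216 for Nfe2l2 and 0.412 for Ddi2, and for Nfe2l2 a DESeq2 adjusted p of 0.0318.

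Among 11 shuttle factors and cofactors of the p97 unfoldase, Ubqln4, which carries ubiquitinated proteins to the proteasome, was higher at 11 weeks (0.44 ± 0.09, edgeR adjusted p = 0.00261), and Vcp, which encodes p97 itself, was higher at both ages. Of the 11, 18.2% were called at 11 weeks and 9.09% at 19–21 weeks, against 14.9% and 9.12% of all tested genes. Vcp had 24.97 to 31.7 CPM in young controls and 84.3 to 104.6 CPM in Titan mice, a log2 fold change of 1.75 ± 0.08 (adjusted p = 2.37e-11), and 1.84 ± 0.08 at 19–21 weeks (adjusted p = 1.08e-11). Its pseudogene Vcp-rs moved the other way, from 40.8 to 51.2 CPM in young controls to 1.89 to 2.48 CPM in Titan mice. Summed, the pair had 72.8 ± 5.89 CPM (SD, n = 5) in controls and 94.7 ± 8.03 CPM in Titan mice at 11 weeks, and 68.5 ± 3.71 and 96.9 ± 7.53 at 19–21 weeks, and the groups of this sum did not overlap. How reads divide between near-identical copies was not tested, so the fold of Vcp alone is uncertain.

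Of 9 genes of antigen peptide loading, 3 (33.3%) were called at 11 weeks, against 14.9% of all tested genes. None was called at 19–21 weeks, against 9.12% of all tested genes. At that age 1 of 9 had an unadjusted p under 0.05 and DESeq2 called none. The chaperones Pdia3 and Calr were lower, with log2 fold changes of -0.45 ± 0.09 and -0.41 ± 0.09 (edgeR adjusted p = 0.00128 and 0.00478) and the peptide editor Tapbpl was higher by 0.49 ± 0.10 (adjusted p = 0.00198). The peptide transporter subunits Tap1 and Tap2 had -0.08 ± 0.15 and -0.24 ± 0.13 at that age (adjusted p = 0.796 and 0.267). Of 14 tested genes of interferon signalling, Stat2 alone was called between the lines, at 19–21 weeks (7.14%, against 9.12% of all tested genes). It had 62.8 to 74.0 CPM in older controls and 99.2 to 115 CPM in older Titan mice (0.59 ± 0.08, edgeR adjusted p = 8.68e-05). Young controls had 83.2 to 101.1 CPM and young Titan mice 79.2 to 101.7 CPM (0.04 ± 0.08), so the older controls lay below the young ones. DESeq2 called Stat2 lower with age in controls (adjusted p = 0.00737), and edgeR did not. The test of a different line effect at the 2 ages gave an adjusted p of 0.0902 by edgeR and 0.00387 by DESeq2.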

How the data were processed

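Livers of 20 male mice, 5 in each of 4 groups by line and age as their titles give them, were profiled by rRNA-depleted, directional RNA sequencing. The authors aligned to GRCm38 by means of STAR 2.5.3a and deposited raw counts of uniquely mapped reads per gene, over both strands and for each strand, without normalization or filter. A read that maps to several positions or lies on more than 1 gene is in no gene's count, so near-identical pseudogenes take reads away. Used here were counts on the strand carrying 96.83% to 97.55% of the strand-assigned gene reads. Lines that name no gene were kept out of library sizes, and 18.4% to 42% of mapped reads lay outside genes. Symbols, positions and exons are from GENCODE M21, which held 55480 of the 55573 gene IDs.

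Following the study's methods, genes of the Y chromosome (1562) and of histones (109) were removed. Counts were fitted with edgeR 4.0.16 in R 4.3.3 (filterByExpr, TMM, quasi-likelihood F tests, two-sided, Benjamini–Hochberg over 13784 genes) in one model of the 4 groups. Standard errors were derived from the F statistic and the fitted log2 fold change. CPM values use TMM-scaled library sizes. The alternatives were DESeq2 1.42.0, other scalings and filters, both strands, only the groups compared, a replicate block, the share of reads outside genes as covariate, and leaving out mice. Chosen after seeing the data were the exclusion of 5 libraries and the length of the principal transcript. The fit was tested on simulated counts with known changes. Pseudogenes that match members were found with BLAST 2.17.0. Of 31 such copies of 15 members, 4 of those matched over at least 50% of their length had 10 reads or more in any mouse, and the largest share such a copy took of its pair was 3.81%. Same-strand genes overlap 12.1% of the exons of Psmb5, 9.7% of Psmg3 and 4.1% of Psmd1. Tables and figures were made with Python 3.11.15.

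Named are the immunoproteasome genes, Psmb5, Psmb6 and Psmb7, every member past the threshold, the highest and lowest level in each class, and per further list up to 3 called genes with the smallest p in each line comparison. Psmd5, Psmg1, Psmd1, Psmc2, Psmc4, Psma7, Psmc3, Psmc5, Psmd8, Psmd13, Tap1 and Tap2 were named after their values were seen. The members, lists and tests were chosen with earlier results of these data known. Precision is set by read depth and by 5 mice a group. Some genes of the further lists are not reported here.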

Additional observations from a re-analysis of the deposited data

Results flagged for a closer look

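In 60 groups of 5 mice (15 genes in each of the 4 groups) 5 held a value set apart from the rest of its group, a gap to the nearest mouse of over 0.71 of the group's range. Chance flags about 1 in 20 groups. Psme1 had 43.6 CPM in control replicate 1 of 11 weeks, against 58.1 to 60.7 CPM in the other controls of that age. Psmb7 had 107.7 CPM in control replicate 3 of 19–21 weeks, against 90.3 to 94.5 CPM. Psmg2 had 10.7 CPM in Titan replicate 5 of 11 weeks, against 9.56 to 9.85 CPM. Psmc3ip was at 0 CPM in control replicate 1 of 11 weeks, against 2.345 to 2.97 CPM, and at 2.64 CPM in control replicate 4 of 19–21 weeks, against 0 to 0.32 CPM.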

How the results depend on the processing

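Results were recomputed under 32 settings, 20 of which left out 1 mouse. Of 11 calls of members, those of Psmf1 and Psmg2 at 11 weeks passed in all 32. Psma8 at both ages (31 settings) and Psmc3ip at 11 weeks (30) passed in those that tested them, and both entered through the control mice, in which they are high. No reported value past the threshold turned direction. At 11 weeks 1 member was higher and 4 lower. There were 3 higher with DESeq2 (Psmd1 and Psmd5 added), 2 higher and 1 lower with at least 10 counts in every mouse (a setting that tests 46 members), 2 lower with only the groups compared, and 1 to 2 higher and 3 to 4 lower without 1 mouse. Over all 13784 genes DESeq2 called 1167 higher and 1102 lower at 11 weeks, against 997 and 1061 by edgeR. Shares of all genes in the remaining settings are not given here. At 19–21 weeks 2 were higher and 3 lower. There were 0 higher and 1 lower without the 5 libraries with over 30% of mapped reads outside genes, 1 lower with only the groups compared, and 1 to 2 higher and 1 to 3 lower without 1 mouse. The count of 1 came without Titan replicate 4 for the higher genes, and without control replicate 5 or Titan replicate 3 for the lower ones. The 1 member higher with age in Titan mice became 0 with both strands, no filter, only the groups compared, the replicate block, the covariate or the 5 libraries left out, and 0 to 1 without 1 mouse. Apart from the smaller sets of mice or genes, the cause was not tested. With the principal transcript length the median level of core and cap was 43.84 CPM per kb in place of 23.1.

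With the replicate number as a block the counts were 1 higher and 3 lower at 11 weeks, 2 higher and 2 lower at 19–21 weeks, and 0 with age in Titan mice. Over 30 same-numbered pairs the deviations from group means correlated at -0.144 to 0.175, and 4 pairs passed 0.1. Differently numbered pairs were not compared with these, so the values cannot show whether the numbers pair the mice. Replicate 4 had 38.2% of mapped reads outside genes in young controls and 41.2% in older controls, the highest of each group. In young and older Titan mice it had 29.8% and 35.1%, not the highest of either group. Whether same-numbered mice shared a batch was not tested. Depth limits Psma8 and Psmc3ip most.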
